A study of Mus musculus with 6 samples.

Results

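The genes of the ubiquitin-proteasome system were examined for splicing differences between the hepatocytes of lean and obese mice. Their members were chosen by name, as every gene whose name begins with Psma to Psmg and a digit (proteasome subunits, activators, inhibitor and assembly chaperones) or with Ube2 (ubiquitin and ubiquitin-like conjugating enzymes) in the splicing table of either diet. The rule found 65 genes, 40 of the proteasome and 25 of the Ube2 family, of 7182 gene names in all. Hepatocytes came from male C57BL/6J mice that were moved from normal chow (13.5% fat), at the age of 8 weeks, to a low-fat diet (LFD, 10% fat) or a high-fat diet (HFD, 60% fat) for 12 weeks. Polyadenylated RNA of 3 libraries per diet was sequenced as stranded paired-end reads, and no genetic change was part of either group. The labels do not say whether each library came from 1 mouse.

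In this system a ubiquitin-activating enzyme (E1) passes ubiquitin to a conjugating enzyme (E2), and a ligase (E3) then joins it to a lysine of the protein to be marked. The proteasome reads the resulting chains, unfolds the protein and cuts it. Its 20S core is a stack of rings of alpha and beta subunits, and its 19S cap holds ATPases, ubiquitin receptors and scaffold subunits. Related E2 enzymes carry NEDD8 or ISG15, which are small proteins attached in the same manner. In the liver the system removes damaged proteins and helps to set the level of enzymes and transcription factors of lipid and drug metabolism.

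The unit of measurement was the local splicing variation (LSV) of the program MAJIQ, which is a reference exon with every junction, and any retained intron, that leaves or enters it. Each junction or intron of an LSV is called an entry here, and its PSI is the fraction of the LSV's reads that use it. The authors pooled the libraries of a diet into 1 PSI with a posterior variance, so no value per library exists in these tables. The ± values below are posterior SDs, which reflect the number of reads and not the spread between mice, and no test over mice could be made from them. PSI measures the balance between alternatives within a gene and not its RNA level. Positions are given in mm10, and transcripts are those of GENCODE M21.

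The member genes were covered in nearly the same LSVs on both diets. The LFD table held 270 of their LSVs and the HFD table held 267, and all 267 of the latter were in the former, which is 98.9% of the LSVs found on either diet against 82.0% over all genes. The 3 seen on LFD only belonged to Psmg2, Ube2j1 and Ube2u, and Ube2u, an E2 with little described function, had no other. Comparisons between diets therefore cover 64 genes with 631 entries, of which 569 were junctions and 62 were introns. A further 22 annotated protein-coding genes of the same names had no LSV on either diet. They included the core subunits Psma2, Psmb2 and Psmb5, the immunoproteasome subunit Psmb8, the 19S subunits Psmd6 and Psmd7, and Ube2a, Ube2c, Ube2d1, Ube2o, Ube2r2, Ube2s and Ube2t. A gene without an LSV is one without a quantified alternative and is not thereby unexpressed. Of 10 hepatocyte marker genes 9 had LSVs on both diets, against 1 of 7 macrophage, 2 of 6 endothelial, 0 of 5 stellate cell and 0 of 4 bile duct markers. The marker counts show the presence of LSVs and give no cell share.

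Most member LSVs were dominated by a single entry on both diets. A second entry counted as used where the second largest PSI was at least 0.1 on both diets. This held for 18 of 267 member LSVs (6.74%), in 12 genes, against 12.0% of the 26910 LSVs of all genes. By family, it held for 6 of the 174 LSVs of proteasome genes (3.45%) and for 12 of the 93 LSVs of Ube2 genes (12.9%). The median over LSVs of the largest PSI difference between diets was 0.000429 for the members, 0.000143 for proteasome genes, 0.00613 for Ube2 genes and 0.00681 for all genes. Among LSVs with a used second entry the median was 0.0452 for the members and 0.0460 for all genes. Of the members' entries 226 (35.8%) had a PSI of at most 0.015 on both diets, close to the lowest value that occurs in the tables, 0.0125, against 30.4% over all genes.

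Under the rule for a difference between diets, PSI had to differ by at least 0.2 and by more than the half-width of the 95% posterior interval of the difference. It was met by 1 of 631 member entries, against 0.417% of all 68110 entries. This was 1 of 267 member LSVs, against 0.624% of all LSVs, and 1 of 64 member genes, against 2.31% of 5978 genes. The entry was a junction of Ube2d3. With the smallest difference set to 0.1 in place of 0.2, the rule was met by 7 entries in 6 LSVs, all in Ube2 genes and among them Ube2d3, Ube2e2 and Ube2w, against 4.17% of all LSVs. The 6 of 267 LSVs are a smaller share than this background, but the same 6 among the 93 LSVs of Ube2 genes are a larger one. They lie in 4 genes. No proteasome gene met the rule at either value, which is 0 of 174 LSVs.

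**Figure D1:**
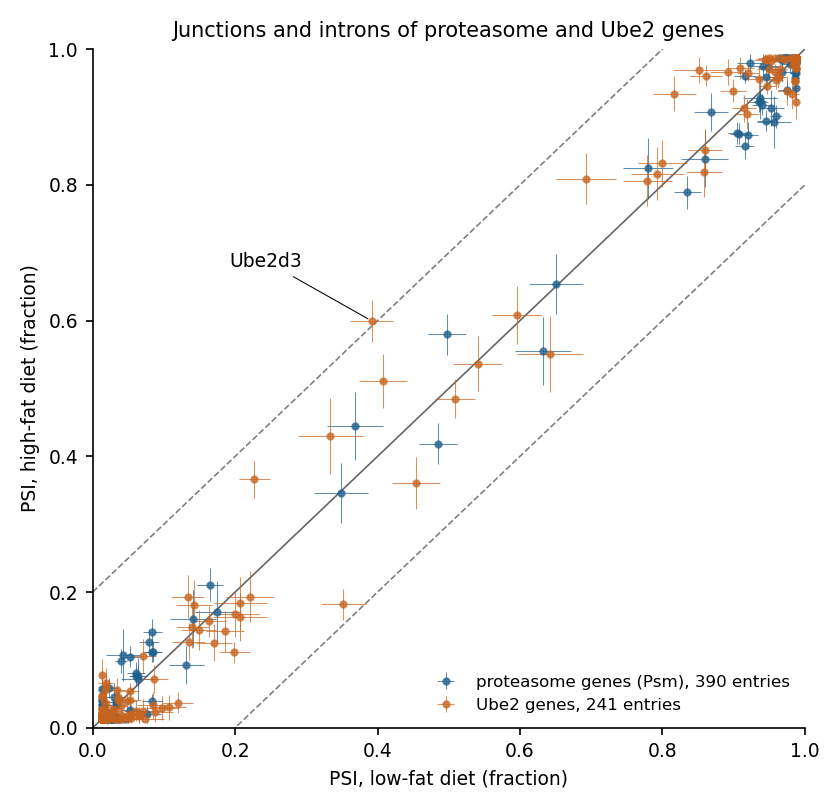
PSI on the high-fat diet (vertical axis) against PSI on the low-fat diet (horizontal axis) for the 631 junctions and introns of proteasome genes (blue) and Ube2 genes (orange), with posterior SDs as bars. The solid line marks equal PSI, the dashed lines mark a difference of 0.2, and the Ube2d3 junction at 0.392 on LFD and 0.600 on HFD is the one beyond them.

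The authors' other analyses gave few entries for these genes. The authors' deposited table of PSI changes lists 124 LSVs and none of a member gene (0 of 267), against 0.36% of all LSVs present on both diets. The authors' deposited table from JUM, a program that compares junction use between conditions without an annotation, lists 470 events, of which 83 have an adjusted p below 0.05. Of the members it lists 1 event of Ube2d3, which is below that threshold, and 1 event of Psmd11, which is not. A JUM event below the threshold was thus found in 1 of 64 member genes, against 1.05% of the 5978 genes. The JUM table names HFD and NC livers in its title line, and HFD and LFD in its column headings. The column headings were followed, and which libraries entered it is not stated in the sources used here. None of these tables is treated as independent support for another.

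Ube2d3 encodes an E2 of the Ube2d family, which works with many ligases and builds several kinds of chain. Its first exons on chromosome 3 (plus strand) can end at several 5′ splice sites, all of which join the exon at chr3:135439644-135439798. The junctions lie in the 5′ untranslated region of the annotated coding transcripts. The 3 sites used most and the 3′ splice site that they share are shown because the difference between diets lies in the choice among them. Each line holds 15 bases on either side of the site, with the first or last 2 intron bases in capitals, and the sites are named by the length of the intron they open.
1291-base intron, 5′ site, chr3:135438338-135438367: ccacctccatcccaaGTgaggaaacggggg
945-base intron, 5′ site, chr3:135438684-135438713: gacggatacgcggcgGTgaataggcggggg
779-base intron, 5′ site, chr3:135438850-135438879: aggccccggccctctGTacgcgtgggtgtg
shared 3′ site, chr3:135439629-135439658: cgtttttgcaaaaAGgcgcctgtgtctggc

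In the LSV that leaves the first exon (chr3:135438297-135438698), the site of the 945-base intron, used by the transcripts Ube2d3-202 and Ube2d3-209, had PSI values of 0.392 ± 0.031 (LFD) and 0.600 ± 0.031 (HFD). This rise of 0.208 was 4.79 times its posterior SD, but it exceeded the required 0.2 by less than its posterior SD. The upstream site of the 1291-base intron, used by Ube2d3-201, had 0.352 ± 0.031 on LFD and 0.182 ± 0.023 on HFD, a difference of -0.170 that did not reach 0.2. On LFD these sites were used to a similar degree, and on HFD the downstream one was used more. A site between them, that of the 1211-base intron (Ube2d3-216), had 0.0528 on LFD and 0.0412 on HFD, and another, that of the 1081-base intron (Ube2d3-206), had 0.0401 and 0.0187. The LSV also holds an entry for reads that run on past the exon end for 60 bases, into sequence that is exonic in another annotated transcript. This entry stood at 0.164 ± 0.023 on LFD and 0.157 ± 0.022 on HFD.

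The LSV that enters the second exon sees the same junctions and also the site of the 779-base intron, used by Ube2d3-212 and Ube2d3-214. There the 945-base intron had PSI values of 0.227 ± 0.022 (LFD) and 0.366 ± 0.027 (HFD), and the 1291-base intron had 0.199 ± 0.022 and 0.111 ± 0.016. Neither difference reached 0.2 in this LSV, so neither met the rule there. The 779-base intron was used most in this LSV and stood at 0.509 ± 0.028 on LFD and 0.485 ± 0.028 on HFD, a difference smaller than its posterior SD. The authors' deposited table from JUM gives, for the same 3 sites, a change from LFD to HFD of 0.160 for the 945-base intron, -0.0964 for the 1291-base intron and -0.0632 for the 779-base intron, with p = 0.000397 and adjusted p = 0.0251. The 945-base and 1291-base introns had the same direction in both LSVs and in JUM. Both LSVs count the reads of the same junctions, so this shared direction is not independent support. The 779-base intron is an entry of the second LSV alone. Further downstream in the coding part of Ube2d3, a 44-base exon of the transcript Ube2d3-214, which is annotated as a target of nonsense-mediated decay, was joined at PSI values of 0.0528 ± 0.0123 (LFD) and 0.0537 ± 0.0129 (HFD).

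**Figure D2:**
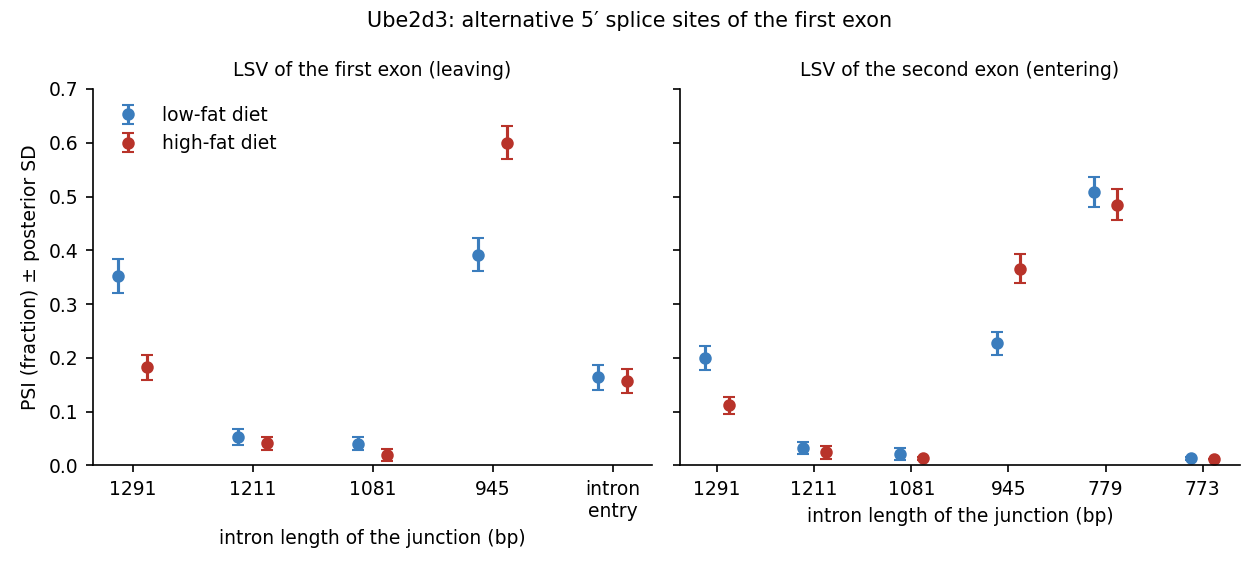
PSI of each Ube2d3 5′ splice site, named on the horizontal axis by the length in bp of the intron it opens, on LFD (blue) and HFD (red), with posterior SDs as bars; left, the LSV leaving the first exon, with its intron entry, and right, the LSV entering the second exon. The 945-bp intron is higher on HFD in both panels (0.392 to 0.600 and 0.227 to 0.366) and the 1291-bp intron is lower.

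Of the 6 alpha subunits of the core with an LSV, none had a used second entry in their 33 LSVs. The 5 beta subunits with an LSV (Psmb1, Psmb3, Psmb4, Psmb6 and Psmb7) had 7 LSVs, in which no entry differed by more than 1.44e-05 in PSI. In Psma3, which encodes an alpha subunit of the outer ring, the exon at chr12:70983319-70983442 can begin at either of a pair of 3′ splice sites that lie 5 bases apart, and the shorter form occurs in a transcript annotated as a target of nonsense-mediated decay. The start of the longer form is shown with the 5 bases that the shorter form lacks in capitals, which end in the AG of the second site.
Psma3, chr12:70983319-70983338, plus strand: TACAGctattgggatcagat

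The second site of Psma3 had PSI values of 0.0853 ± 0.0112 (LFD) and 0.112 ± 0.015 (HFD) in the LSV that enters the exon, and 0.0838 and 0.112 in the LSV that leaves the exon before it. Psma3 was also the one core subunit with an intron at a PSI of at least 0.05. This intron, of 77 bases between coding exons, had PSI values of 0.0527 ± 0.0123 (LFD) and 0.105 ± 0.016 (HFD) seen from the exon after it, and 0.0614 ± 0.0084 and 0.0762 ± 0.0136 seen from the exon before it. Its use was below 0.11 in each of these 4 values. Of the immunoproteasome subunits, which replace core beta subunits in cells exposed to interferon, Psmb9 and Psmb10 had LSVs. The main junction into the Psmb9 exon at chr17:34185730-34185797 had 0.953 ± 0.018 on LFD and 0.913 ± 0.027 on HFD, and the largest difference in Psmb10 was 0.00174.

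In the 19S cap, the ATPases of the base, Psmc1 to Psmc6, held 22 LSVs and no used second entry. In Psmc4 an intron entry of 80 bases (chr7:28042508-28042587) gave opposite directions in its 2 LSVs. It had 0.084 ± 0.015 on LFD and 0.0389 ± 0.0105 on HFD seen from the exon after it, but 0.0639 ± 0.0129 and 0.0771 ± 0.0151 seen from the exon before it. In Psmc1 an unannotated junction stood at 0.0130 ± 0.0035 on LFD and 0.0568 ± 0.0253 on HFD.

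Psmd4 encodes a ubiquitin receptor of the cap (Rpn10) and had a pair of junctions that were both used at a PSI above 0.4 on both diets. Its exon can end at either of 2 splice sites 9 bases apart, within the coding sequence, so that the transcripts differ by a multiple of 3 bases. The site is shown on the minus strand with 15 bases on each side, and the 9 bases that only the longer exon holds are in capitals. Both introns begin with gtg.
Psmd4, chr3:95033894-95033932, minus strand: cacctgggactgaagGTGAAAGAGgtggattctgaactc

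The shorter exon of Psmd4 (transcript Psmd4-202) had PSI values of 0.498 ± 0.027 (LFD) and 0.580 ± 0.030 (HFD). The longer exon (Psmd4-201 and others) had 0.485 ± 0.027 and 0.419 ± 0.030. The difference of 0.0825 at the first of these was the largest of any proteasome gene with a posterior SD under 0.05 on both diets, and it did not meet the rule. The authors' deposited table from JUM lists no event of Psmd4.

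Psmd11 encodes a scaffold subunit of the cap (Rpn6). An exon between those at chr11:80438251-80438375 and chr11:80445242-80445313 occurs in 2 transcripts, Psmd11-206 and Psmd11-210, that are annotated as targets of nonsense-mediated decay. It begins at 80438505 in the former and at 80438521 in the latter, and ends at 80438630 in both. Its coding stretch is short: the reading frame of each transcript ends within the exon, after 30 coding bases in Psmd11-206 and 6 in Psmd11-210. The sequence around these ends is shown with both stop codons in capitals, that of Psmd11-210 first.
Psmd11, chr11:80438508-80438537, plus strand: ctctttgttacagggcattTGAtacttTGA

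The junction from this exon to the next had PSI values of 0.0397 ± 0.0085 (LFD) and 0.0984 ± 0.0174 (HFD) in Psmd11. The junction into the exon, as it begins in Psmd11-210, had 0.0231 ± 0.0124 and 0.0585 ± 0.0142. The authors' deposited table from JUM gives a change of 0.0554 toward HFD for the first of these junctions, with p = 0.0148 and adjusted p = 0.222. At the other end of the gene a 68-base intron entry in the 3′ untranslated region (chr11:80471642-80471709) had 0.0840 ± 0.0133 on LFD and 0.141 ± 0.019 on HFD, and 0.0793 ± 0.0136 and 0.126 ± 0.020 in its other LSV. These Psmd11 entries were all higher on HFD, and none met the rule.

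The other 19S genes named for their values were Psmd5, Psmd10 and Psmd13. Psmd5 and Psmd10 encode chaperones that help to assemble the cap. A junction of Psmd5 that bypasses an exon of the coding transcripts and belongs to the noncoding transcript Psmd5-204 had 0.141 ± 0.032 on LFD and 0.161 ± 0.042 on HFD. An unannotated junction of Psmd5, to a site 31 bases inside an exon, had 0.0767 ± 0.0188 on LFD and 0.0202 ± 0.0126 on HFD. In Psmd10, on chromosome X, a 5′ splice site that shortens a coding exon by 79 bases had 0.132 ± 0.025 on LFD and 0.0920 ± 0.0279 on HFD. Psmd13 encodes another cap subunit (Rpn9). In 1 of its LSVs reads that run through a stretch of 130 bases before the exon made up 0.957 ± 0.024 on LFD and 0.893 ± 0.038 on HFD, and the stretch lies inside an annotated exon. The remaining share was the junction into that exon in transcript Psmd13-210.

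Psme1 encodes the alpha subunit of the PA28 activator, which opens the core for peptide release. Its exon ending at 55580427 on chromosome 14 can begin at either of 2 sites 48 bases apart. The part between the sites is in capitals, followed by the first 60 bases of the shorter exon.
Psme1, chr14:55580282-55580389, plus strand: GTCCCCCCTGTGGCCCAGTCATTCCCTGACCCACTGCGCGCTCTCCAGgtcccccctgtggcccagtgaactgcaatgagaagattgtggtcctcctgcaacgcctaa

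The first 19 bases after both Psme1 sites are identical, so that a read can be placed at one site only if it runs further than this into the exon. The upstream site, annotated in a retained-intron transcript alone (Psme1-205), had PSI values of 0.165 ± 0.019 (LFD) and 0.211 ± 0.024 (HFD). The downstream site, that of the coding transcripts, had 0.835 and 0.789. The part played by the repeat in these values was not tested. In the other activator genes, Psme2, Psme3 and Psme4, the largest differences were 0.00739, 0.0168 and 0.0263, and in the inhibitor Psmf1 it was 0.0327.

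The products of the assembly chaperone genes Psmg3 and Psmg4 pair to build the alpha ring. The assembly chaperones as a role had the highest share of used alternatives per LSV among proteasome roles. Of their 10 LSVs 3 had a used second entry, against 12.0% of the LSVs of all genes. These were 1 LSV of Psmg3 and 2 of Psmg4, and those of Psmg4 see the same exon from either side. In Psmg4 a coding exon of 76 bases is included or skipped, and its length is not a multiple of 3. It is shown because both forms were common on both diets.
Psmg4 exon, chr13:34166061-34166136, plus strand: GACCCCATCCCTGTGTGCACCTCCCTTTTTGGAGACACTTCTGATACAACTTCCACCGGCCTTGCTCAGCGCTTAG

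In the LSV that leaves the exon before it, inclusion of the Psmg4 exon (transcript Psmg4-202) had PSI values of 0.632 ± 0.039 (LFD) and 0.556 ± 0.050 (HFD). In the LSV that enters the exon after it, inclusion had 0.651 ± 0.038 and 0.654 ± 0.044. The difference was -0.0765 in the first LSV and 0.00313 in the second. In Psmg3 a pair of first-exon ends in the 5′ untranslated region had 0.780 ± 0.035 and 0.175 ± 0.032 on LFD and 0.824 ± 0.045 and 0.171 ± 0.045 on HFD.

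**Figure D3:**
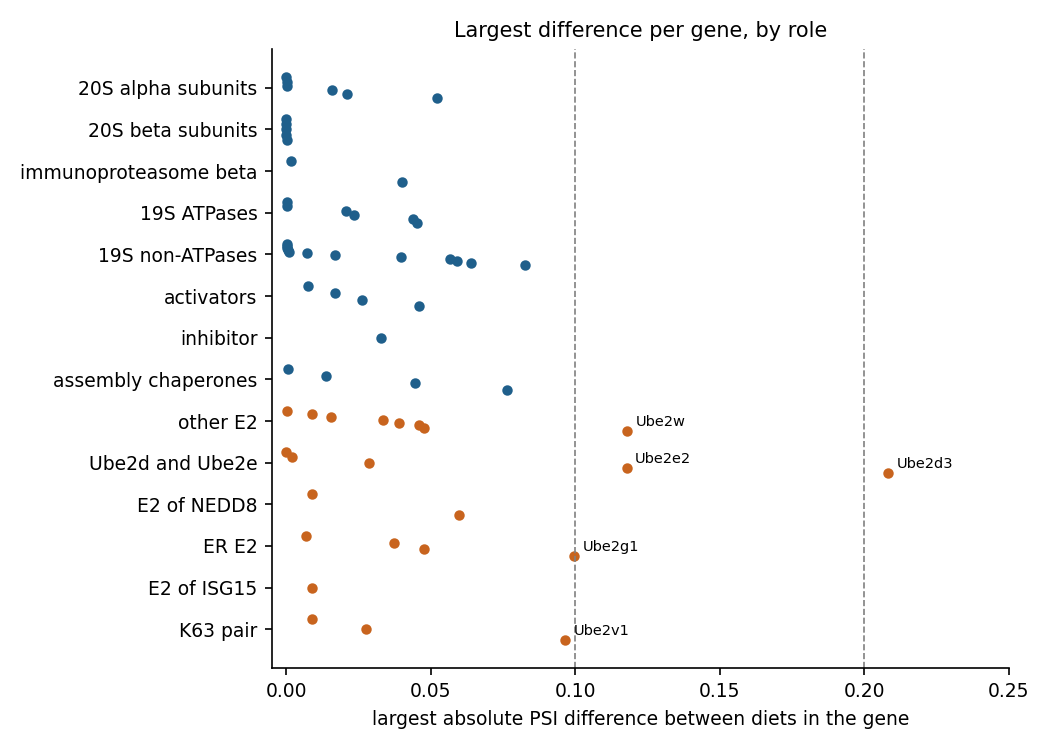
Largest absolute PSI difference between diets (horizontal axis) in each member gene reported here, grouped by role (vertical axis); proteasome genes are blue and Ube2 genes orange, and the dashed lines mark 0.1 and 0.2. The proteasome genes lie at or below 0.0825, and the points above 0.1 are Ube2d3 (0.208), Ube2w (0.118) and Ube2e2 (0.118).

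Among the E2 enzymes of ubiquitin, Ube2e2 and Ube2w followed Ube2d3 in the size of their differences. Ube2e2 encodes a relative of the Ube2d enzymes with a longer amino-terminal part. It has an exon of 51 bases, a multiple of 3, that is coding in the protein-coding transcripts holding it and is skipped in Ube2e2-211. The junction into this exon also occurs in noncoding transcripts and in transcripts annotated as targets of nonsense-mediated decay. Its PSI is therefore not a measure of coding use alone.
Ube2e2 exon, chr14:18871494-18871544, minus strand: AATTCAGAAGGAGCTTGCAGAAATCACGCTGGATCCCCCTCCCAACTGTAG

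Reads leaving the 51-base exon of Ube2e2 joined the next annotated exon at PSI values of 0.852 ± 0.036 (LFD) and 0.969 ± 0.019 (HFD). Reads entering that next exon came from the 51-base exon at 0.693 ± 0.043 and 0.809 ± 0.037. Skipping of the 51-base exon, however, had 0.207 ± 0.037 on LFD and 0.184 ± 0.039 on HFD seen from upstream, and 0.207 ± 0.037 and 0.164 ± 0.035 seen from downstream. The difference therefore lay mostly in minor entries: a junction to an exon of Ube2e2-207 and Ube2e2-208 had 0.0739 ± 0.0269 on LFD and 0.0127 ± 0.0021 on HFD.

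Ube2w encodes an E2 that attaches ubiquitin to the amino terminus of proteins. Its main junction into the reference exon chr1:16584158-16585431 had PSI values of 0.817 ± 0.030 (LFD) and 0.935 ± 0.026 (HFD), and 0.892 ± 0.025 and 0.966 ± 0.020 seen from the exon before it. A 3′ splice site 79 bases further into the exon (Ube2w-206) had 0.0976 ± 0.0232 on LFD and 0.0293 ± 0.0182 on HFD, and an unannotated junction within the exon had 0.0844 ± 0.0222 and 0.0331 ± 0.0194. The use of each of these minor junctions was lower on HFD, by less than 0.1.

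Of the E2 enzymes of NEDD8, the small protein that activates cullin ligases, Ube2m had no used second entry and Ube2f had one in 2 of its LSVs. Its exon after the first can begin at any of 3 sites in the 5′ untranslated region, and 2 of these lie 3 bases apart. On LFD these had, from the first to the last site, PSI values of 0.186 ± 0.027, 0.595 ± 0.034 and 0.149 ± 0.024 in the LSV leaving the first exon of Ube2f. On HFD they had 0.142 ± 0.030, 0.608 ± 0.042 and 0.144 ± 0.030. A 68-base exon (Ube2f-201) had a junction at 0.134 ± 0.023 on LFD and 0.193 ± 0.032 on HFD. In Ube2l6, the E2 of ISG15, the largest difference was 0.00893.

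Ube2n and its partners Ube2v1 and Ube2v2 build chains that serve in signalling and DNA repair. In Ube2v1 the coding exon at chr2:167617588-167617977 was entered from the first exon of Ube2v1-207 at PSI values of 0.643 ± 0.046 (LFD) and 0.551 ± 0.056 (HFD), and from that of Ube2v1-201 at 0.333 ± 0.046 and 0.430 ± 0.056. The former junction is listed also under Gm20431, so its reads cannot be assigned to Ube2v1 alone. In Ube2v2 skipping of a coding exon of 126 bases had 0.221 ± 0.034 on LFD and 0.193 ± 0.038 on HFD in one LSV, and 0.140 ± 0.024 and 0.148 ± 0.030 in the other. A 186-base intron of Ube2n had 0.0362 ± 0.0098 and 0.0450 ± 0.0131.

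Of the E2 enzymes that act in the degradation of proteins from the endoplasmic reticulum or are related to these, Ube2g1 had the largest difference. Its exon at chr11:72663071-72663173 was entered from the main first exon at 0.861 ± 0.023 on LFD and 0.961 ± 0.016 on HFD. A junction from a 116-base exon of Ube2g1-203 had 0.119 ± 0.021 and 0.0373 ± 0.0155. Seen from the first exon, the main junction of Ube2g1 had 0.962 ± 0.014 and 0.959 ± 0.016, and the junction from there into the 116-base exon had 0.0158 ± 0.0086 and 0.0393 ± 0.0157, in the opposite direction. In Ube2j2, a membrane-bound E2, an unannotated site 20 bases inside an exon had 0.0656 ± 0.0149 on LFD and 0.0181 ± 0.0106 on HFD, and 0.0648 and 0.0191 in the second LSV that holds it.

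Among the remaining E2 genes, Ube2q2 had the highest use of a second entry. Skipping of its coding exon of 105 bases had PSI values of 0.1999 ± 0.034 (LFD) and 0.168 ± 0.035 (HFD) seen from upstream, and 0.142 ± 0.025 and 0.181 ± 0.037 seen from downstream, in opposite directions. In Ube2h an alternative junction had 0.0182 ± 0.0108 on LFD and 0.0659 ± 0.0217 on HFD. In Ube2k skipping of an exon had 0.0511 ± 0.0137 and 0.0194 ± 0.0113. Ube2e1, Ube2e3 and Ube2l3 had no difference above 0.00183.

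**Figure D4:**
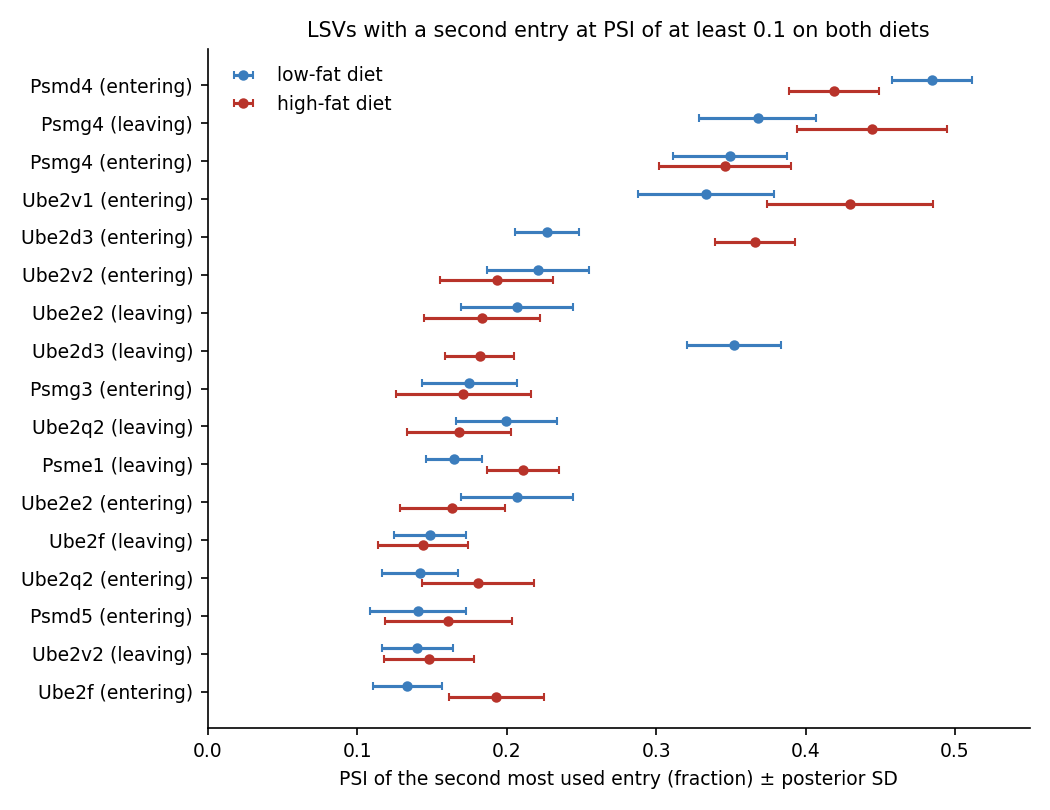
PSI of the second most used entry (horizontal axis) in the LSVs of the member genes reported here in which it was at least 0.1 on both diets, by gene and side of the reference exon, on LFD (blue) and HFD (red), with posterior SDs as bars. The gap between diets is widest for the Ube2d3 LSVs (0.352 against 0.182, and 0.227 against 0.366), and the LSVs are ordered from the top by the lower of the 2 diets' values, which was 0.419 for Psmd4.

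Intron entries were used to a measurable degree in few member genes. Of 62 intron entries 11 had a PSI of at least 0.05 on either diet (17.7%), against 39.5% of 6850 over all genes. These 11 entries are 7 distinct stretches, in Ube2d2a, Psmd13, Ube2d3, Psmd11, Psmc4, Psma3 and Ube2j2. Those of Psmd11, Psmc4 and Psmd13 are not annotated introns in themselves. In Psmd11 and Psmc4 the stretch is a part of the longer intron that the main junction of its LSV removes. The Psmd11 and Ube2d3 stretches are exonic in an annotated transcript. The one in Ube2d2a, an E2 closely related to Ube2d3, is a stretch of 38 bases in the 3′ untranslated region that lies inside an annotated exon, and its PSI stood at or just under the upper bound of the tables, 0.9875, on both diets. A second Ube2d2a intron, of 80 bases, had 0.0348 ± 0.0093 on LFD and stood at the lower bound of 0.0125 on HFD. In Ube2j2 an 85-base intron had 0.0173 ± 0.0099 on LFD and 0.0561 ± 0.0166 on HFD in one LSV, and 0.0368 ± 0.0114 and 0.0410 ± 0.0144 in the other.

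**Figure D5:**
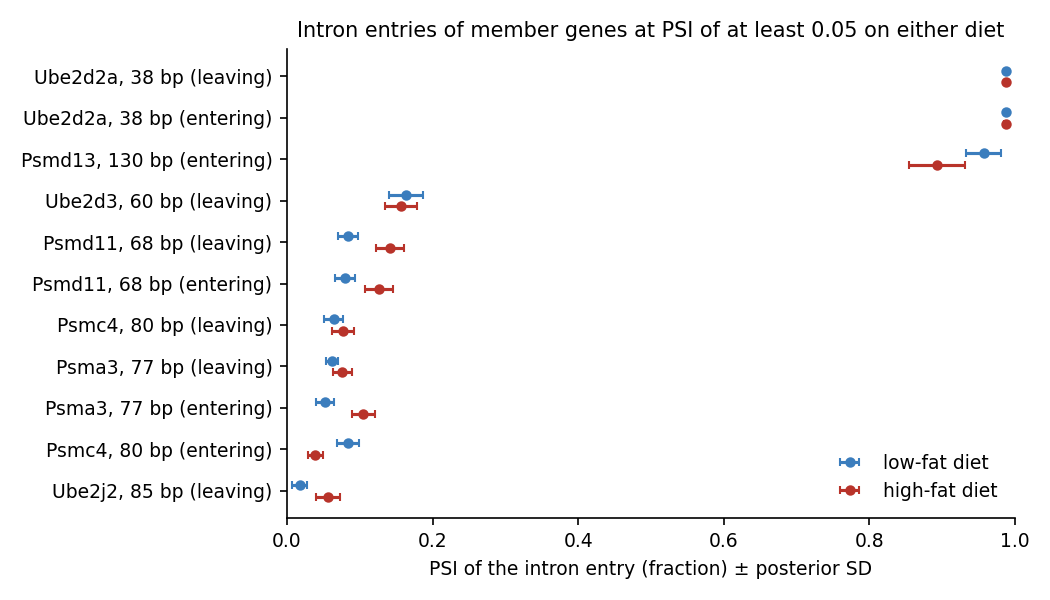
PSI (horizontal axis) of the 11 intron entries of member genes that reached 0.05 on either diet, with gene, length in bp and side of the reference exon, on LFD (blue) and HFD (red), with posterior SDs as bars. The Ube2d2a and Psmd13 entries are near 1, and the other entries stand at or below 0.164. Lying inside an annotated exon does not set the Ube2d2a and Psmd13 entries apart, because those of Psmd11 and Ube2d3 do so too.

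The alternatives of the 18 LSVs with a used second entry lay in coding sequence in 10 cases and in the 5′ untranslated region in 6, and the remaining 2 were mixed or touched a noncoding transcript. Of the 569 junction entries 89 were in no GENCODE M21 transcript of the member gene, and 8 of these had a PSI of at least 0.05 on either diet. They were entries of Psmc1, Psmd5, Ube2f, Ube2j2 and Ube2w described in part above. The Ube2f entry had 0.0542 ± 0.0141 on LFD and 0.0140 ± 0.0060 on HFD. Unannotated junctions were not counted over all genes, so whether they are few or many among the members was not tested. Junctions of Ube2g2, Ube2b, Ube2l3, Psmg3, Psmb10 and Psma4 were, like that of Ube2v1, listed also under a neighbouring or overlapping gene.

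The precision of these values differed between diets. At the 41 member entries with a PSI between 0.1 and 0.9 on both diets, the median posterior SD was 0.0324 on LFD and 0.0372 on HFD. The posterior SD was larger on HFD at 36 of the 41. Over all genes the medians were 0.0286 on LFD and 0.0321 on HFD, and the SD was larger on HFD at 5792 of 7126 such entries. The lower precision on HFD is thus not particular to the members. Read as a binomial proportion, a posterior of this width corresponds to a median of 203 reads on LFD and 132 on HFD, against 220 and 169 over all genes. The differences just above 0.1 in Ube2e2 and Ube2w were between 2.04 and 2.97 times their posterior SD.

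Of 34 other genes of the pathway that were listed for comparison (E1 enzymes, ubiquitin genes, shuttle factors, deubiquitinases and regulators of proteasome genes), 25 had LSVs on both diets, 121 in all. None had an entry that met the rule, against 2.31% of 5978 genes. In the authors' deposited table of PSI changes there are 0 of them, against 0.36% of all LSVs present on both diets. At such shares a count of 0 in a list of this size does not set these genes apart.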

How the data were processed

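Hepatocyte RNA from 3 LFD and 3 HFD libraries, grouped by title, was analysed. The submitters' processing notes name FastQC, STAR and the build mm10, without versions. The authors deposited 1 table per diet from MAJIQ's viewer with PSI, a fraction from 0 to 1, and its posterior variance per entry, with the libraries of a diet pooled. They also deposited a table of PSI changes, from a run whose folder is named strict, and a JUM table with p-values and q-values for events with p below 0.05; JUM's title line names HFD and NC livers, but its changes are taken as HFD minus LFD, per the column heading. Read totals per library are not in these tables.

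LSVs were matched by ID, posterior SDs were combined as the root of summed variances, and junctions were matched to GENCODE M21 (Python 3.11.15, pandas 2.3.3). Sequences were rebuilt from GENCODE M21 transcripts on GRCm38. The calling rule was tested on simulated data. Members, lists and the rule for named genes were chosen with earlier results of these data known. Named genes were members listed by JUM or meeting the rule, the 6 per family with the largest change at a posterior SD under 0.05, the 8 per family with the highest use of a second entry, and those with the 8 most used introns; Psmb9, Psmc1, Ube2h, Ube2k and other members given in a clause were added after their values were seen. Results of 1 member gene, of some other pathway genes and of 1 sequence are not reported here.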

Additional observations from a re-analysis of the deposited data

How the results depend on the processing

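The counts depend on the smallest PSI difference that is required. At 0.1 in place of 0.2 the rule was met by 7 member entries, 6 LSVs and 4 genes, and at 0.3 by 0, 0 and 0. A stricter or no multiple of the posterior SD, identical entry lists, and a posterior SD under 0.05 at every entry each left 1 entry, 1 LSV and 1 gene, which was Ube2d3 each time. Of the members' JUM events, 0 had an adjusted p below 0.01, and 2 were listed in all. With a PSI of at least 0.1 on either diet 7 intron entries counted as used in place of 11. The other alternatives moved a count by less than 1.5 times. No paired analysis was possible because the tables hold 1 pooled value per diet, and leaving out each library could not be run for the same reason. A posterior SD covers reads and not mice, so the spread between mice behind every PSI difference is unknown.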
